A study of Mus musculus with 27 samples.

Results

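Eph receptors and ephrins are a paired family of membrane proteins through which neighbouring cells repel or hold each other. EphA receptors bind mostly the ephrin-A ligands, which are anchored in the membrane by a lipid, and EphB receptors bind mostly the ephrin-B ligands, which span it, and both partners can signal into their own cell. In the brain the family is known for guiding axons, including the ordered projections of the hippocampus, and for shaping dendritic spines in the adult. The 10 genes described here were chosen by symbol from the 31053 genes counted in every library. They are the receptors Epha3, Epha4, Epha5, Epha6, Epha7, Ephb1 and Ephb2 and the ligands Efna5, Efnb2 and Efnb3, and all 10 were found. The other 12 genes of the family that were counted and 20 genes of Eph signalling were taken along for comparison.

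The RNA of single nuclei from the hippocampus was counted in 27 mice, with 1 library per mouse. The mice carried P301S tau, a human tau transgene with a mutation of familial frontotemporal dementia, or no tau transgene, and 2, 1 or 0 intact copies of Cgas, the gene of a sensor of cytosolic DNA. The groups were Cgas+/+ (n = 5, 3 males and 2 females), Cgas+/- (n = 2 males), Cgas-/- (n = 2 males), and the P301S groups with the same 3 Cgas genotypes, P301S Cgas+/+, P301S Cgas+/- and P301S Cgas-/-, of 6 mice each with 3 males and 3 females. The methods of the study give an age of 9 to 10 months and its results 8 to 9 months. Cgas was absent by design from every cell of the Cgas-/- mice and not from microglia alone, and the tau transgene of this line is driven by a prion promoter, so that no contrast isolates an effect of 1 cell type.

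Libraries held 46091490 to 79484316 unique molecular identifiers (UMIs), each of which stands for 1 captured RNA molecule, and 204852 nuclei were kept. Nuclei were clustered without the 22 counted genes of the family and clusters were called "-like" a cell type from marker genes. Excitatory neuron-like nuclei numbered 80001, oligodendrocyte-like 45778, astrocyte-like 27069, inhibitory neuron-like 14318, microglia-like 11425 and OPC-like 6609, where OPC stands for oligodendrocyte precursor cell. The markers of these 6 classes were each above their level over all nuclei, which is no separate check, since the clusters were named from markers. The UMI level of Cgas itself did not fall with the labelled copies of the gene in the P301S groups. In microglia-like nuclei its level in CPM, its UMIs scaled to the same total of UMIs in every mouse and type (the usual counts-per-million scale), ran from 25.8 to 55.4 in P301S Cgas+/+ mice and from 40.1 to 57.9 in the libraries labelled P301S Cgas-/-, and among tau-free mice it was 32.2 to 38.2 in Cgas+/+, 15.6 to 22.3 in Cgas+/- and 21.6 to 33.1 CPM in Cgas-/-. The directions given here rest on the labels. Where the counted 3′ reads lie relative to the deleted part was not examined, so this level does not check the genotype. In P301S Cgas+/+ replicate 3, 49.3% of kept nuclei fell into clusters with no name, against 0.760% to 6.85% in the other mice. Pairs of libraries shared 8 to 48 cell barcodes, at most 0.57% of the smaller library.

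The genes lie on 8 chromosomes of the mouse genome (GRCm38) and all but Epha7 are on the minus strand. Epha6 spans 952 kb of chromosome 16 (16:59653483-60605531), of which 0.556% is exonic, and Epha3 lies on the same chromosome (16:63543534-63864175). Efnb3 is the shortest gene, with 6.11 kb on chromosome 11 (11:69554092-69560205) and 52.1% exonic bases. Intronic reads of a nucleus were counted, so a gene with long introns offers more places to be primed, and levels are compared between cell types and between mice and never between genes.

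The start regions of 2 genes are printed because their levels ordered cortical-like and CA1-like neurons in opposite ways, as shown further on: Epha6 was higher in CA1-like and Efna5 in cortical-like neurons. Both were high in Sst-like interneurons, and over the 25 types described further on their correlation was r = -0.12. Both windows run from 250 bases before to 50 bases after the annotated start and were taken from RefSeq (GRCm38.p6), 5′ to 3′ on the gene's own minus strand, at chr16:60605482-60605781 for Epha6 and chr17:62881268-62881567 for Efna5. Capitals mark E-boxes, the motif CANNTG that basic helix-loop-helix factors bind, on either strand.
Epha6: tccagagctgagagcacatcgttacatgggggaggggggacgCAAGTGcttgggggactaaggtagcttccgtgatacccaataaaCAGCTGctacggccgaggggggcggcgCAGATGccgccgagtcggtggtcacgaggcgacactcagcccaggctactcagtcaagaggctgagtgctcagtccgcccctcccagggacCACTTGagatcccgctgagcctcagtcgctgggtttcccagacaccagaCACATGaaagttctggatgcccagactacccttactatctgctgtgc
Efna5: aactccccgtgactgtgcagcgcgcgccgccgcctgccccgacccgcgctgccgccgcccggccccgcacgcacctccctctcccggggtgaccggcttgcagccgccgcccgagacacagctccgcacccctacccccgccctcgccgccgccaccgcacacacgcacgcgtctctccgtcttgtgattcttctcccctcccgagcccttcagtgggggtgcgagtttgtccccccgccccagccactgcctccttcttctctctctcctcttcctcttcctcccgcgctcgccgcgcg
The Epha6 window held 5 E-boxes and the Efna5 window held 0. Of the 9 members with a window, Epha6 held 5, Ephb2 and Efnb2 held 1 each and the other 6, Efna5 among them, held 0, while 72.3% of all 32851 windows of this length held at least 1. The Efna5 window held 38 CpG dinucleotides, and the windows of all 9 members held 14 or more, against a median of 7 over all windows. The MEF2 motif was in none of the 9 and in 0.557% of all windows. A match in a window of this length is a description of its letters only.

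Epha6 separated the neurons of the hippocampus from one another (the heat map of mean levels by type). It was highest in CA1-like neurons, at 5952 ± 1469 CPM (mean ± SD, n = 27 mice), and lowest in cortical layer 6-like neurons, at 93.1 ± 32.1 CPM (n = 24). CA1-like neurons were above dentate granule-like neurons in 27 of 27 mice, by 3.54-fold in the means, and above all cortical-like neurons in 27 of 27, by 6.85-fold. CA3-like neurons lay below CA1-like neurons in 22 of 22 mice with at least 10 nuclei of each, and within the cortex layer 5-like neurons were 11.8-fold above layer 6-like neurons. Layer names of cortical-like nuclei are less certain, since layer markers were scored against nuclei outside the cortical-like class. Most of the 19317 layer 5-like nuclei lay in clusters that had Cux2 among their 10 leading genes. The largest of these clusters held 5522, 2212, 1769 and 1559 nuclei. Clusters named upper layer-like also had Cux2 among their leading genes. Among interneurons, Sst-like neurons held 2874 ± 599 CPM and exceeded Pvalb-like neurons in 26 of 26 mice.

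**Figure D1:**
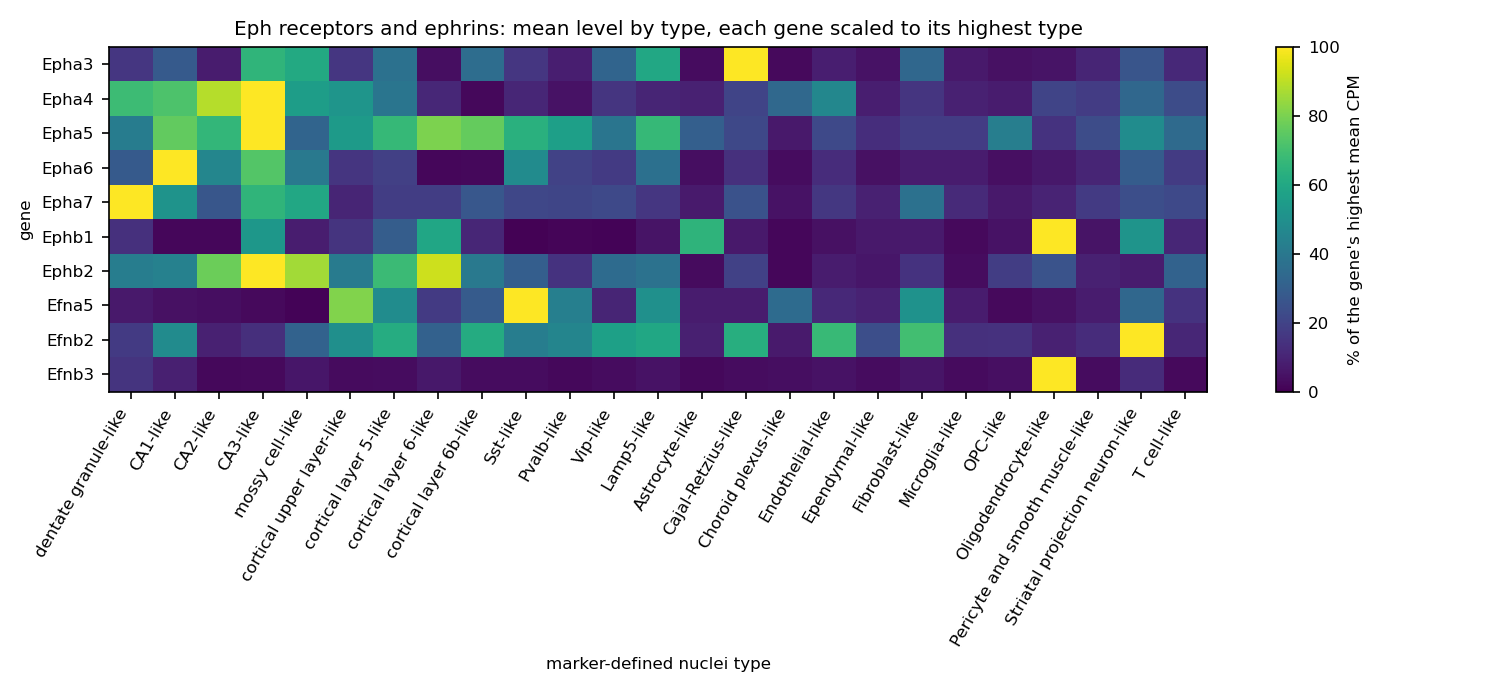
Mean level of each gene (rows) in each of 25 marker-defined types of nuclei (columns), as a percentage of that gene's highest type, averaged over mice with at least 10 nuclei of the type. Epha6 peaks in CA1-like, Epha7 in dentate granule-like, Epha4 in CA3-like, Efna5 in Sst-like and Ephb1 and Efnb3 in oligodendrocyte-like nuclei, and colours compare types within a row only.

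The other EphA receptors were led by types other than CA1-like neurons. Epha7, a receptor known from axon guidance and early synapse formation, was highest in dentate granule-like neurons at 992 ± 265 CPM and exceeded cortical-like neurons in 27 of 27 mice by 5.71-fold. Epha4, which binds ephrins of both classes, held 818 ± 139 CPM in CA3-like, 728 ± 72.0 in CA2-like and 589 ± 101 in CA1-like neurons. The step from CA2-like to CA1-like neurons was larger than the spread of the within-mouse differences, and the step from CA3-like to CA2-like was not. Epha4 was lower toward the deep cortex. It was 4.53-fold higher in upper layer-like than in layer 6-like neurons (22 of 22 mice) and stood at 18.03 ± 6.95 CPM in layer 6b-like neurons. Epha5 was broad, from 1143 ± 496 CPM in CA3-like neurons through 917 ± 272 in cortical layer 6-like neurons to 643 ± 205 in Pvalb-like neurons, and 22 of its 24 neighbouring steps were within the spread between mice. Epha3 was led by Cajal-Retzius-like neurons, the early-born cells of the marginal zone, at 813 ± 250 CPM (n = 19), and among interneurons by Lamp5-like neurons at 488 ± 59.3 CPM, above Sst-like neurons in 26 of 26 mice.

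The EphB receptors divided the hippocampus along other lines. Ephb1 was 30.7-fold higher in CA3-like than in CA1-like neurons (22 of 22 mice) and 8.4-fold higher in dentate granule-like than in CA1-like neurons (27 of 27). It was nearly absent from Sst-like interneurons, at 5.62 ± 2.79 CPM, while cortical layer 6-like neurons held 479 ± 140 CPM. Its 2 highest types were not neurons but oligodendrocyte-like nuclei, at 809 ± 132 CPM, and astrocyte-like nuclei, at 525 ± 105 CPM. Ephb2, a receptor that clusters glutamate receptors at synapses, was highest in CA3-like neurons at 258 ± 110 CPM, and CA3-like neurons exceeded both CA1-like and dentate granule-like neurons in 22 of 22 mice. In the cortex Ephb2, like Ephb1, was higher in layer 6-like than in upper layer-like neurons in 22 of 22 mice.

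The ligands differed from one another in their leading type. Efna5, a ligand of the EphA receptors, held 757 ± 173 CPM in Sst-like interneurons and 613 ± 291 CPM in cortical upper layer-like neurons, against 20.1 ± 14.96 CPM in CA3-like neurons. All cortical-like neurons exceeded CA1-like neurons 11.2-fold and dentate granule-like neurons 7.17-fold, in 27 of 27 mice each, the opposite order to that of Epha6 and Epha7. Its spread between mice was wide, and in the order of its 25 types 0 of 24 neighbouring steps exceeded it. Efnb2 was low throughout, with 94.1 ± 48.5 CPM in striatal projection neuron-like nuclei (n = 13) and 63.3 ± 36.5 CPM in endothelial-like nuclei, where ephrin-B2 is known as a mark of arteries. The endothelial-like level was not particular to that type. In Cgas+/+ mice it averaged 57.9 CPM, beside 71.7 CPM in fibroblast-like and 59.3 CPM in Cajal-Retzius-like nuclei. Efnb3 stood far above its other levels in the myelinating cells. Oligodendrocyte-like nuclei held 234 ± 37.5 CPM, 14.1-fold above excitatory neuron-like nuclei and 24.7-fold above OPC-like nuclei in 27 of 27 mice, and dentate granule-like neurons were next at 34.7 ± 8.50 CPM.

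Over all 10 genes, 0 to 4 of the 24 neighbouring steps in a gene's order exceeded the spread between mice, so the orders hold for groups of types rather than for single ranks. Genes with the most similar pattern over the 25 types were sought among 11874 genes that reached 20 CPM in at least 1 type, by Pearson's correlation of log2 levels. The types share libraries, and the values are descriptions. The 2 closest genes were A330008L17Rik and Trpc5, a calcium channel (r = 0.88 and 0.86), for Epha6, and Galnt17 and Nsf (0.83 and 0.82) for Epha7. Among the closest to Epha5 was Scn8a, a sodium channel (0.91). The 2 closest were Kcnb2 and Robo2, an axon guidance receptor (both 0.83), for Epha3, Stum and Pkp2 (0.81 and 0.80) for Epha4 and Lrp11 and Crtac1 (both 0.87) for Ephb2. For the ligands they were Klhdc1 and Klf5 (0.75 and 0.74) with Efna5, Acbd6 and Serp2 (both 0.76) with Efnb2, and Gm48370 and Aplp1, a relative of the amyloid precursor (0.79 and 0.77), with Efnb3. Ephb1 had no close match, with 0.66 for both Dlg1 and Gpm6b.

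RNA released from broken neurons is found in every droplet, so levels outside neurons were set beside those of 7 excitatory markers, each as a percentage of its level in excitatory neuron-like nuclei (the plot of members outside neurons). In oligodendrocyte-like nuclei the markers kept 7.59% to 26.6% of the excitatory level. Ephb1 was at 476% and Efnb3 at 1410%, and Epha4 at 38.4% and Ephb2 at 43.9% also lay above that range. In astrocyte-like nuclei (markers 5.10% to 16.4%) Ephb1 stood at 309%, Epha5 at 47.2%, Efnb3 at 31.4% and Efna5 at 27.6%, and Efnb2 (18.5%) and Epha4 (17.5%) lay just above the range. In OPC-like nuclei Epha5 stood at 66.2% and Efnb3 at 57.1%, above the highest marker at 41.4%. In microglia-like nuclei, where the markers reached 30.6%, 9 of the 10 genes were within or under that range and Efnb3, with 6.70 CPM, was at 40.5%. In endothelial-like nuclei Epha4 (86.9%), Efnb2 (145%) and Efnb3 (67.5%) exceeded a range that ended at 46.0%. In T cell-like nuclei 0 of 10 did. This range covers RNA released from excitatory neurons only, and not that of interneurons or other cells. Efna5, for one, averaged 390 CPM in inhibitory and 163 CPM in excitatory neuron-like nuclei of Cgas+/+ mice. Since Ephb1 and Efnb3 were highest in oligodendrocyte-like nuclei, they were also set beside 8 oligodendrocyte markers, as a percentage of the level in oligodendrocyte-like nuclei, a comparison added after seeing the data. Efnb3 lay within the range of these markers in microglia-like (2.87%, markers 1.18% to 3.41%) and endothelial-like nuclei (4.86%, markers 1.86% to 30.8%), and above it in astrocyte-like (2.23%, markers 0.463% to 1.85%) and OPC-like nuclei (4.05%, markers 0.577% to 2.32%). Ephb1 was at 64.9% in astrocyte-like nuclei, and at 2.38% and within the range in microglia-like nuclei.

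**Figure D2:**
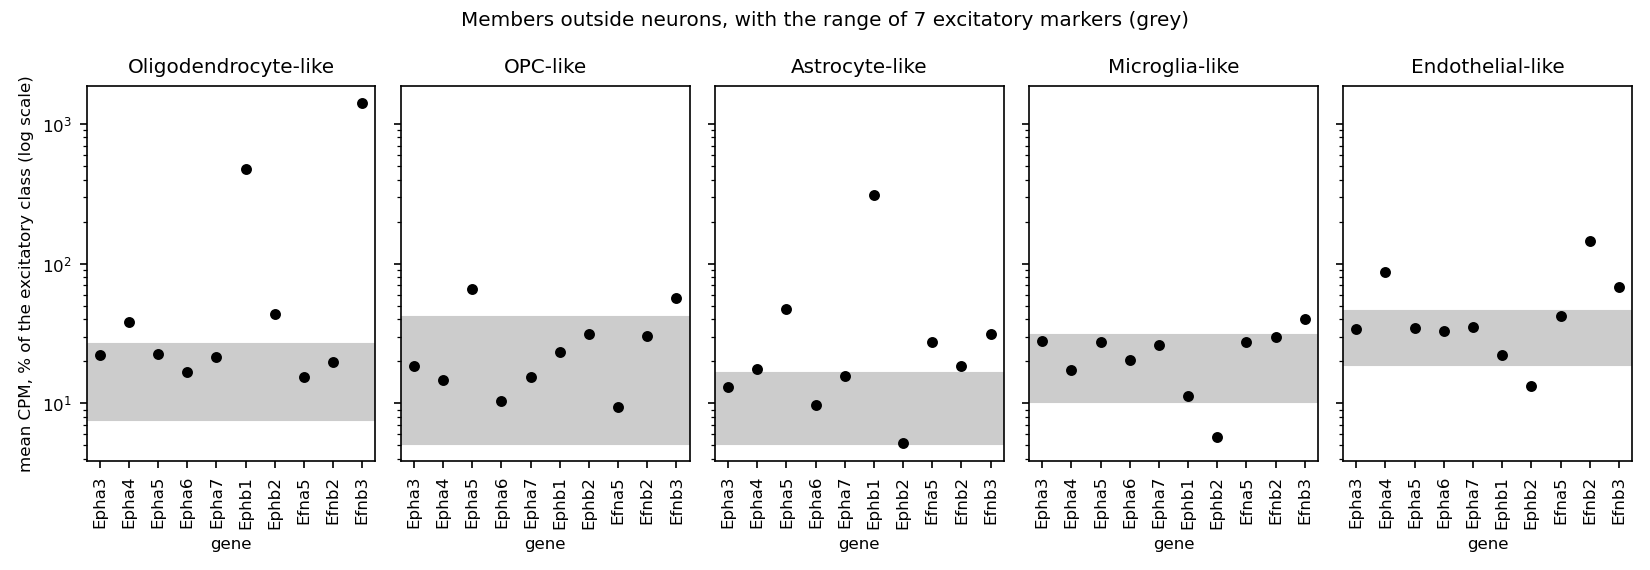
Mean level of each gene in 5 classes of non-neuronal nuclei as a percentage of its mean level in excitatory neuron-like nuclei (log scale), with the range of 7 excitatory marker genes in grey. Points above the grey band, such as Ephb1 and Efnb3 in oligodendrocyte-like nuclei and Epha5 in OPC-like and astrocyte-like nuclei, lie above the range of the excitatory markers.

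Of the other 12 genes of the family, 5 reached 20 CPM in any type. Epha10 was highest in Sst-like interneurons (196 ± 31.7 CPM), Ephb4, known from veins, in endothelial-like nuclei (67.5 ± 30.5 CPM), Ephb6 in Cajal-Retzius-like neurons (39.3 ± 23.6 CPM), Ephb3 in astrocyte-like nuclei (21.0 ± 6.79 CPM) and Efna1 in endothelial-like nuclei (20.9 ± 21.6 CPM).

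Differences between genotypes were tested on UMIs summed per mouse within 9 types, with edgeR's quasi-likelihood test across all genes, sex as a covariate and Benjamini-Hochberg adjustment. The contrasts were tau (P301S Cgas+/+ over Cgas+/+), deletion (P301S Cgas-/- over P301S Cgas+/+) and heterozygous (P301S Cgas+/- over P301S Cgas+/+). The last 2 share their 6 control mice, and their values are given side by side. At an adjusted p under 0.05, 0 of the 10 genes were called in any of the 9 types in any of the 3 contrasts, by edgeR or by DESeq2. The background was also close to 0. In the tau contrast 0.0236% of tested genes were called in excitatory neuron-like, 0.00762% in inhibitory neuron-like, 0.00784% in dentate granule-like, 0.00818% in CA1-like, 0.00652% in cortical-like, 0.00769% in astrocyte-like, 0.00808% in oligodendrocyte-like, 0.0115% in OPC-like and 0.0436% in microglia-like nuclei. In the deletion and heterozygous contrasts 0% were called in each of the 9 types. At an unadjusted p under 0.05, 3 of 87 member values stood in the tau contrast (2 higher, 1 lower), 9 of 87 in the deletion contrast (1 higher, 8 lower) and 10 of 87 in the heterozygous contrast (2 higher, 8 lower). Over all genes in the same 9 types the shares were 5.33%, 5.49% and 4.83%, and they differed between types. The dentate granule-like, CA1-like and cortical-like nuclei are also part of the excitatory neuron-like class, so the 87 values are not separate. All values that follow are descriptions below the threshold of a call.

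In excitatory neuron-like nuclei the tau contrast left the 10 genes between -0.25 and 0.26 on the log2 scale, with 0 at an unadjusted p under 0.05, beside 2.41% of all genes. In the deletion contrast 3 of 10 stood at that p, beside 13.3% of all 16928 genes tested, and in the heterozygous contrast also 3 of 10, beside 11.6%, so the members' share rests on 3 genes against a high background. The ligand Efna5 held 63.2, 130 and 287 CPM (lowest, median and highest) in P301S Cgas+/+ mice, 81.0, 319 and 428 in P301S Cgas-/- mice and 112, 289 and 576 in P301S Cgas+/- mice. The groups overlapped at both ends, and 5 Cgas+/+ mice lay between 77.9 and 231 CPM. Its log2 difference was 1.005 ± 0.39 (SE, edgeR unadjusted p = 0.0167, adjusted p = 0.274) for the deletion and 1.01 ± 0.39 (adjusted p = 0.303) for the heterozygous contrast.

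The receptors Epha6, Epha7 and Epha4 and the ligand Efnb3 differed the other way. Epha6 held 1251, 2907 and 3901 CPM (lowest, median and highest) in P301S Cgas+/+, 1099, 1954 and 2951 in P301S Cgas-/- and 846, 1789 and 2352 in P301S Cgas+/- mice. The groups overlapped, and the log2 difference was -0.47 ± 0.27 (edgeR adjusted p = 0.458) and -0.72 ± 0.27 (adjusted p = 0.289). Epha7 was at -0.51 ± 0.39 and -0.35 ± 0.39, Epha4 at -0.41 ± 0.20 and -0.33 ± 0.20, and Efnb3 at -0.57 ± 0.23 and -0.62 ± 0.23, in the same order of contrasts. The other 5 genes stood between -0.39 and 0.31.

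The share of cortical-like neurons in this class also differed between mice, and its mean differed between the groups. Cortical-like nuclei made up 3.77% to 77.3% of excitatory neuron-like nuclei in P301S Cgas+/+ mice (mean 29.3%), 43.6% to 75.1% in P301S Cgas-/- mice (mean 55.5%), 44.7% to 85.5% in P301S Cgas+/- mice (mean 57.6%) and 19.1% to 69.6% in Cgas+/+ mice (mean 42.3%). The 3 female P301S Cgas+/+ mice held 3.77% to 7.73%, and the 3 males 29.4% to 77.3%. An exact two-sided permutation test over mice gave p = 0.0758 for the deletion and p = 0.0671 for the heterozygous contrast (both 0.227 after adjustment over 12 subtype comparisons, none of which passed). Efna5 was high and Epha6 and Epha7 low in mice with many cortical-like nuclei (the plots against the makeup of the class). In a sum over the whole class, other subtype shares and other levels within subtypes cannot be told apart.

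**Figure D3:**
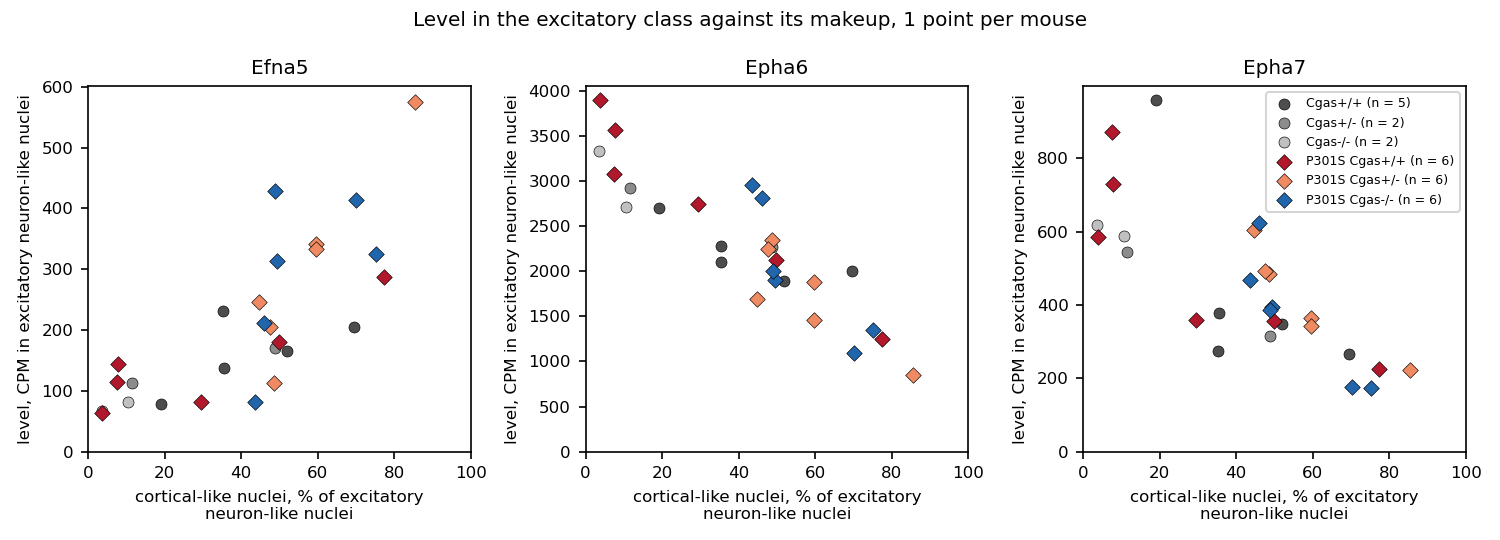
Level of Efna5, Epha6 and Epha7 in excitatory neuron-like nuclei (CPM, vertical) against the percentage of these nuclei that were cortical-like (horizontal), 1 point per mouse and 1 colour per genotype group. Efna5 is higher and Epha6 and Epha7 are lower toward the right, and 3 P301S Cgas+/+ mice sit at the far left under 8%.

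For comparison, a difference was calculated from each mouse's subtype shares and the mean level of each subtype over all mice. The part of the makeup in the observed differences was not tested by it. For Efna5 it was 0.89 on the log2 scale in the deletion contrast, where the means of the log2 levels differed by 1.02, and 0.94 in the heterozygous contrast, where they differed by 1.06. For Epha6 it was -0.45 beside an observed -0.46, and -0.61 beside -0.65. For Epha7 it was -0.57 beside -0.49 in the deletion contrast, and -0.49 beside a smaller observed -0.23 in the heterozygous contrast. For Epha4 it was -0.31 beside -0.35, and -0.26 beside -0.24. For Efnb3 it was smaller than observed, -0.33 beside -0.49 and -0.31 beside -0.52. The same held for Epha3, at -0.12 beside -0.31 and -0.17 beside -0.38. For Ephb1 it was 0.32 beside 0.35, and 0.38 beside 0.45.

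With the cortical-like share as a further covariate, a fit chosen after seeing the data, Efna5 was at 0.45 ± 0.37 (deletion) and 0.38 ± 0.38 (heterozygous), Epha6 at 0.07 ± 0.17 and -0.11 ± 0.18, and Epha4 at 0.00 ± 0.12 and 0.15 ± 0.12. Of the 10 genes, 0 stood at an unadjusted p under 0.05 in the deletion contrast (background 5.64%) and 1, Epha7 at 0.56 ± 0.22, in the heterozygous contrast (background 5.73%). Among hippocampal-like nuclei only, a fit also chosen after seeing the data, 0 of 10 did in either contrast (backgrounds 3.61% and 3.42%). In that fit Efna5 was at -0.05 ± 0.29 and -0.12 ± 0.29. Within the males alone, the mean log2 differences in the deletion contrast were 0.94 for Efna5, -0.05 for Epha6, 0.34 for Epha7 and 0.09 for Epha4. Within the females they were 1.15, -0.77, -1.07 and -0.74. Sex overlaps with the Cell Ranger version that the headers name, since all 12 libraries of the older version are male.

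**Figure D4:**
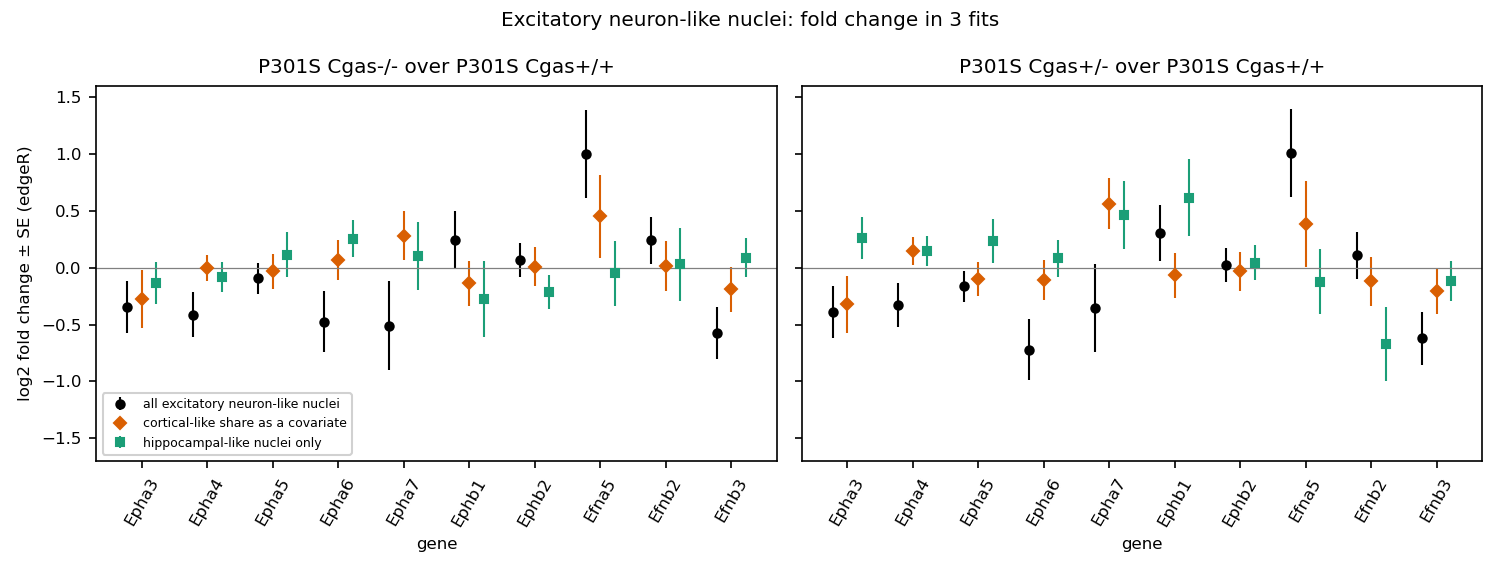
Fold change (log2 ± SE, edgeR) of each gene in excitatory neuron-like nuclei for P301S Cgas-/- (left) and P301S Cgas+/- (right) over P301S Cgas+/+, with all nuclei (black), with the cortical-like share as a covariate (orange) and in hippocampal-like nuclei only (green). The values of Efna5 are near 1 with all nuclei and between -0.12 and 0.45 in the other 2 fits, and those of Epha6 are under 0 with all nuclei and above 0 in hippocampal-like nuclei only.

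Single subtypes were also tested, though a mouse gave as few as 18 dentate granule-like or 21 CA1-like nuclei. In dentate granule-like and CA1-like neurons 0 of 10 genes stood at an unadjusted p under 0.05 in any of the 3 contrasts. The shares of all genes at that p were also low, with 3.95%, 3.56% and 4.51% in dentate granule-like and 1.5%, 2.23% and 2.45% in CA1-like neurons for the tau, deletion and heterozygous contrasts. Epha7 in dentate granule-like neurons ran from 735 to 1236 CPM in P301S Cgas+/+ mice, from 685 to 1530 in P301S Cgas-/- mice and from 589 to 1327 in Cgas+/+ mice, and Epha6 in CA1-like neurons from 3907 to 7744, from 4270 to 8298 and from 3304 to 8259 CPM. These ranges overlapped over most of their length.

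In cortical-like neurons Epha6 had the smallest p of the 10 genes in the deletion and the heterozygous contrasts. P301S Cgas+/+ mice held 832, 1002 and 1229 CPM (lowest, median and highest), P301S Cgas-/- mice 612, 674 and 851, P301S Cgas+/- mice 539, 695 and 966, and the 5 Cgas+/+ mice 833 to 1369. In the deletion contrast 5 of 6 P301S Cgas-/- mice lay below every P301S Cgas+/+ mouse, and the log2 difference was -0.51 ± 0.17 (edgeR unadjusted p = 0.00519, adjusted p = 0.884). In the heterozygous contrast it was -0.50 ± 0.16 (adjusted p = 0.855). In cortical layer 5-like nuclei alone, chosen after seeing the data, it was -0.50 ± 0.16 and -0.38 ± 0.16, though the name of this layer is uncertain, as said above. In that fit Epha6 and Efnb3 (-0.67 ± 0.31) were the 2 of 10 genes at an unadjusted p under 0.05 in the deletion contrast, beside 5.59% of all genes, and Epha6 the 1 of 10 in the heterozygous contrast, beside 5.47%, while Epha7 was at -0.30 ± 0.18, Efna5 at 0.32 ± 0.36, Epha5 at -0.16 ± 0.14 and Epha3 at -0.14 ± 0.36 in the former. The mean log2 difference in the deletion contrast was -0.28 within males and -0.72 within females, and the 3 female P301S Cgas+/+ mice gave 99 to 277 cortical-like nuclei each. Efnb3, at -0.46 ± 0.20, and Epha7, at -0.36 ± 0.17, also stood at an unadjusted p under 0.05 in the deletion contrast, which makes 3 of 10 beside a background of 4.64%. In the heterozygous contrast Epha6 was the only one of 10, beside 5.18%. Among mice with at least 150 cortical-like nuclei, a fit chosen after seeing the data that drops P301S Cgas+/+ replicates 3 and 4, 5 of 10 stood there in the deletion contrast (Epha5, Epha6, Epha7 and Efnb3 lower and Efna5 higher, at 0.76 ± 0.35), beside 7.93% of all genes, and 4 of 10 in the heterozygous contrast (Epha3, Epha5, Epha6 and Epha7, all lower), beside 8.76%. Epha6 was at -0.56 ± 0.19 and -0.55 ± 0.19 in that fit, and 0 genes were called. The layers within the cortical-like class also differed between mice, with an upper layer-like share of 0.856% to 19.7% in the 4 P301S Cgas+/+ mice kept and 3.16% to 43.5% in P301S Cgas-/- mice, and the part of the layers in these values was not tested.

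**Figure D5:**
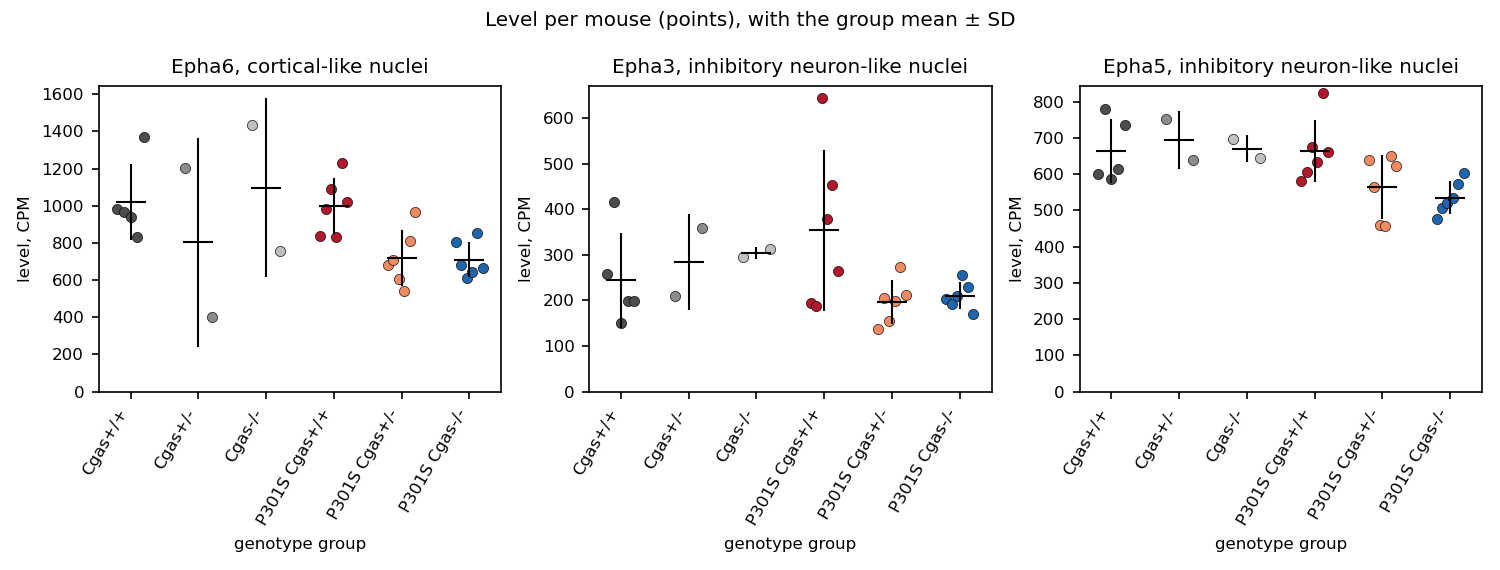
Level per mouse (CPM, points) of Epha6 in cortical-like and of Epha3 and Epha5 in inhibitory neuron-like nuclei in the 6 genotype groups, with the group mean ± SD. P301S Cgas-/- mice sit between 612 and 851 CPM for Epha6, mostly under P301S Cgas+/+ mice, and the highest Epha3 value is that of P301S Cgas+/+ replicate 3 at 645 CPM.

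In inhibitory neuron-like nuclei the tau contrast had 0 of 10 genes at an unadjusted p under 0.05, beside 2.62% of all genes. In the deletion contrast Epha3 and Epha5 stood there, 2 of 10 beside 5.72% of all genes, and in the heterozygous contrast Epha3, Epha5, Epha6 and Epha7, 4 of 10 beside 4.31%, all lower. Epha5 held 582, 647 and 825 CPM (lowest, median and highest) in P301S Cgas+/+ mice, 477, 526 and 603 in P301S Cgas-/- mice and 456, 593 and 650 in P301S Cgas+/- mice. P301S Cgas-/- mice overlapped P301S Cgas+/+ mice at 1 end of the range, P301S Cgas+/- mice over more of it, and the log2 difference was -0.34 ± 0.13 (edgeR adjusted p = 0.814) and -0.29 ± 0.13 (adjusted p = 0.99975). Epha3 held 187, 321 and 645 CPM in P301S Cgas+/+ mice and 170, 206 and 256 in P301S Cgas-/- mice, a log2 difference of -0.73 ± 0.27. Within males its mean difference was -0.05 and within females -1.22.

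In P301S Cgas+/+ replicate 3, inhibitory nuclei without a subtype name held 1073 CPM of Epha3 and were 128 of its 227 inhibitory neuron-like nuclei. Without that mouse the Epha3 difference was -0.55 ± 0.26 in the deletion contrast. In the nuclei of named subtypes only (Sst-like, Pvalb-like, Vip-like and Lamp5-like, chosen after seeing the data) Epha3 was at -0.40 ± 0.21 and -0.42 ± 0.21. Epha5 was at -0.44 ± 0.14 (edgeR unadjusted p = 0.0052, adjusted p = 0.756) and -0.46 ± 0.14 (adjusted p = 0.678), and Epha6 at -0.33 ± 0.13 and -0.39 ± 0.13. In that fit Epha5, Epha6 and Efnb2 stood at an unadjusted p under 0.05 in the deletion contrast (background 5.34%), and Epha5, Epha6 and Epha7 in the heterozygous contrast (background 5.82%), all of them lower.

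The 2 genes that were highest in glia overlapped between the groups of the 3 contrasts there. Ephb1 in oligodendrocyte-like nuclei held 729 to 851 CPM in Cgas+/+, 650 to 1119 in P301S Cgas+/+, 656 to 1014 in P301S Cgas+/- and 623 to 931 in P301S Cgas-/- mice. Efnb3 in the same nuclei held 195 to 276, 171 to 278, 206 to 254 and 170 to 308 CPM. All these ranges overlapped, while the 2 tau-free Cgas+/- mice, at 651 and 687 CPM of Ephb1, lay below the Cgas+/+ mice. Neither gene stood at an unadjusted p under 0.05 there.

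Ephb2, at low counts, stood at an unadjusted p under 0.05 in glia in the tau contrast. In astrocyte-like nuclei it was at 3.98 to 9.51 CPM in Cgas+/+ and at 4.95 to 20.5 CPM in P301S Cgas+/+ mice, a log2 difference of 0.88 ± 0.33 (edgeR unadjusted p = 0.0132, adjusted p = 0.301), beside 11.7% of genes at that p in this type. The mean difference was 0.18 within males and 1.64 within females, and its level in this type lay within the range of the 7 excitatory markers. In oligodendrocyte-like nuclei it was at 14.97 to 47.1 and 29.6 to 108 CPM, a log2 difference of 1.39 ± 0.64 (adjusted p = 0.74, background 6.69%). Epha3 in microglia-like nuclei was at -0.79 ± 0.33 in the tau contrast (edgeR adjusted p = 0.25), where 15% of all genes stood at an unadjusted p under 0.05. Its level in microglia-like nuclei also lay within the range of the excitatory markers.

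Epha4 in oligodendrocyte-like nuclei held 140, 188 and 209 CPM (lowest, median and highest) in P301S Cgas+/+ mice, 127, 154 and 194 in P301S Cgas-/- mice and 123, 144 and 171 in P301S Cgas+/- mice. The groups overlapped, and the log2 difference was -0.24 ± 0.11 for the deletion (background 4.34%) and -0.36 ± 0.11 for the heterozygous contrast (unadjusted p = 0.00397 by edgeR, adjusted p = 0.999993, background 3%). In the latter Efna5, with 32.6 CPM on average in this type, was at 0.90 ± 0.35, and it was at 0.55 without P301S Cgas+/- replicate 1. Its level there was 15.4% of that in excitatory neuron-like nuclei, within the range of the excitatory markers, and the part of released RNA was not tested.

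Whether Cgas deletion acted differently with and without P301S tau was tested as an interaction over all 27 mice, in which the tau-free Cgas-/- group has 2 males. Both of their libraries carry the older header version, 3.0.2, while the other groups in this contrast hold both versions. The fit had no term for the version. In excitatory neuron-like nuclei 0 of 10 genes were called (background 0.00563%), and 4 of 10 stood at an unadjusted p under 0.05 beside 18.5% of all genes. Efna5 was at 2.35 ± 0.72 (adjusted p = 0.0923), Efnb3 at -1.25 ± 0.38 (adjusted p = 0.0913), Epha6 at -1.09 ± 0.44 and Epha4 at -0.84 ± 0.32. The 2 tau-free Cgas-/- mice had 3.63% and 10.6% of cortical-like nuclei, at the low end of the series, and held 66.2 and 82.2 CPM of Efna5. From subtype shares alone the tau-free deletion contrast would differ by -1.05 for Efna5, and the means of the log2 levels differed by -1.04. The part of the makeup in the interaction was not tested. DESeq2, an alternative test, called Efna5 (2.33, adjusted p = 0.0163) and Efnb3 (-1.28, adjusted p = 0.0339) for this interaction, beside 4.84% of all genes.

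Of the other family genes and the signalling partners, edgeR called 0 in any type and contrast. DESeq2 called 0 of them in the tau contrast, 1 partner in the deletion contrast (Arhgef15), 1 in the heterozygous contrast (Ngef) and 3 partners (Arhgef15, Ngef and Rgs3) and the receptor gene Epha8 for the interaction, all in excitatory neuron-like nuclei, where it called 0.349% of all genes for the deletion, 0.673% for the heterozygous contrast and 4.84% for the interaction. The 2 with the smallest p there in the deletion and heterozygous contrasts were exchange factors of the ephexin family. Arhgef15, which encodes ephexin-5, was at 1.12 ± 0.30 for the deletion and 1.004 ± 0.30 for the heterozygous contrast (edgeR adjusted p = 0.204 and 0.21). Ngef, which encodes ephexin-1, was at 0.72 ± 0.19 and 0.80 ± 0.19 (adjusted p = 0.204 and 0.196). In this class 13.3% and 11.6% of all genes stood at an unadjusted p under 0.05 in these contrasts. Its mean cortical-like share differed between the groups, and the part of the makeup in the values of both genes was not tested. In inhibitory neuron-like nuclei the smallest p in the deletion contrast belonged to the adaptors Nck1, at -0.30 ± 0.11, and Nck2, at -0.23 ± 0.09, and in the heterozygous contrast to Adam10, a protease that cleaves ephrins, at -0.16 ± 0.07, and Nck2, at -0.18 ± 0.09. In the tau contrast it belonged to Epha8, at -0.93 ± 0.38, and Efna1, at -0.58 ± 0.27, in excitatory neuron-like nuclei, and to Adam10, at 0.19 ± 0.08, and Ptpro, a phosphatase of Eph receptors, at 0.34 ± 0.15, in inhibitory neuron-like nuclei. Over the 9 types, 13 of 163 partner values stood at an unadjusted p under 0.05 in the deletion contrast (3 higher, 10 lower) and 11 of 163 in the heterozygous contrast (5 higher, 6 lower). Of 49 values of the other family genes, 9 did so in the deletion contrast, 8 of them higher, and 3 in the heterozygous contrast, all higher. The share of all genes in these types was 5.49% and 4.83%, and the types overlap, as said above.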

How the data were processed

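Nuclei were isolated from mouse hippocampus, sorted for DAPI and sequenced with 10x Chromium 3′ v3 kits. The deposited matrices hold raw UMI counts per gene and barcode, made by the authors with Cell Ranger on mm10 with intronic reads counted as pre-mRNA. The labels name Cell Ranger 3.1.0 and Seurat 3.0, and the file headers give 3.0.2 in 12 libraries and 3.1.0 in 15.

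From these counts, nuclei were kept if they had 200 to 4000 genes and no more than 5% mitochondrial UMIs. The upper limit of genes dropped 20030 barcodes, from 289 to 2066 per library. The part of this loss in the subtype shares and levels was not tested. Doublets were scored per library with Scrublet (scanpy 1.11.5), and the top 0.8% for every 1000 barcodes were dropped, 16429 nuclei in all. Clusters came from 2000 variable genes without the family, 30 principal components and a nearest-neighbour graph (15 neighbours, igraph 0.11.9, resolution 1), and were named where at least 3 markers led them. Of 204852 nuclei, 4.85% stayed unnamed. These names were rebuilt here and may differ from those of the study.

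UMIs were summed per mouse and type, since nuclei of a mouse are not replicates. edgeR 4.0.16 (TMM, low-count filter, robust quasi-likelihood) was fitted to the 23 mice of 4 groups, and to all 27 for the interaction. The SE given with an edgeR log2 difference was back-calculated, as its absolute value divided by the square root of the test's F statistic. CA3-like nuclei were left out, since some mice had 0 or 1. The script was tested on simulated data. Levels are means over mice with at least 10 nuclei, and likeness used log2(CPM + 1). The alternatives were DESeq2 1.42.0, other filters, samples and covariates and leaving out each mouse, and those named as chosen after seeing the data were added later. The 10 genes and the lists were chosen with earlier results of these data known. Of the other genes, those called were to be named, and otherwise the 2 with the smallest p per contrast in excitatory and inhibitory neuron-like nuclei, and the 2 most alike in pattern. One gene that this rule names is not reported here.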

Additional observations from a re-analysis of the deposited data

Results flagged for a closer look

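The lowest and highest mouse of each group of 5 or 6 mice were compared with their neighbours by Dixon's gap for 13 gene and type pairs and for the share of cortical-like nuclei, 56 groups in all, of which chance would flag about 1 in 20. A mouse stood apart in 4 of them. Epha7 in excitatory neuron-like nuclei was at 958 CPM in Cgas+/+ replicate 2, next to 378 CPM in the mouse below it. That mouse had 60.1% dentate granule-like nuclei among its excitatory neuron-like nuclei, the highest share of the series. Epha6 in cortical-like nuclei was at 1369 CPM in Cgas+/+ replicate 5, next to 985 CPM. Ephb1 in inhibitory neuron-like nuclei was at 163 CPM in Cgas+/+ replicate 2, while the other 4 mice of that group held 7.10 to 13.8 CPM. The cortical-like share was 85.5% in P301S Cgas+/- replicate 1, next to 59.6%. The part of the class's makeup in the Epha7 value was not tested.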

How the results depend on the processing

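No paired analysis was possible because the labels number no replicates, and the numbers used here follow the order of the sample list and tie no mouse to another. All 20 recomputed levels moved by less than 1 SD, and 145 of 152 recomputed shares kept their direction and side of the threshold. For the interaction in excitatory neuron-like nuclei the count of called members was 2 under DESeq2 (Efna5 and Efnb3, beside 4.84% of all genes) and ran from 0 to 3 when 1 mouse was left out, with 3 (Epha4, Efna5 and Efnb2) without Cgas+/+ replicate 2 (4.84% of all genes called) and 2 (Efna5 and Efnb3) without P301S Cgas+/+ replicate 1 (5.0% of all genes called). Without the low-count filter it was 1 in microglia-like nuclei in the tau contrast (Epha3, -0.73, beside 3.66% of all genes) and 1 in the heterozygous contrast (Epha6, -0.62, beside 0.13%). In excitatory neuron-like nuclei the signs of Epha4, Epha6, Epha7, Efna5 and Efnb3 were followed. In the fit to hippocampal-like nuclei (chosen after seeing the data) the sign turned for Epha7 (0.10 for the deletion and 0.46 for the heterozygous contrast), Efnb3 (0.090, deletion), Epha6 (0.26 and 0.082), Efna5 (-0.047 and -0.12) and Epha4 (0.15, heterozygous). With the cortical-like share as a covariate (chosen after seeing the data) it turned, among the same genes, for Epha7 (0.28 and 0.56), Epha6 (0.068, deletion) and Epha4 (0.15, heterozygous). Some other genes also stood, among hippocampal-like nuclei, opposite to the class-wide difference of mean log2 levels. They included Ephb1 (-0.28 beside 0.35, deletion), Efnb2 (-0.67 beside 0.15, heterozygous) and Epha3 (0.26 beside -0.38, heterozygous). The cause was not tested. With 1 mouse left out, differences in subtype share (percentage points of excitatory neuron-like nuclei) ran from 21.2 to 35.9 for cortical-like nuclei for the deletion and from 22.8 to 37.9 for the heterozygous contrast, from -15.0 to -8.12 for CA1-like (heterozygous), from -4.15 to -1.86 for CA3-like (deletion), from -2.28 to 0.0025 for CA3-like (tau) and from -1.83 to 11.7 for dentate granule-like nuclei (tau). Without P301S Cgas+/+ replicate 1 the adjusted p was 0.0433 for the cortical-like share in both contrasts and for the CA1-like share in the heterozygous one. Without P301S Cgas+/+ replicate 2 it was 0.026 for the CA3-like share in the deletion contrast, and the CA3-like difference turned sign in the tau contrast. The dentate granule-like difference turned sign without P301S Cgas+/+ replicate 3 and without Cgas+/+ replicate 3 (-1.19). In excitatory neuron-like nuclei Epha7 was at -0.34 without P301S Cgas-/- replicate 6 (deletion) and at -0.56, -0.19 and -0.23 without P301S Cgas+/+ replicates 1, 3 and 5 (heterozygous). Across all genes in excitatory neuron-like nuclei, edgeR called 4, 0 and 0 genes in the tau, deletion and heterozygous contrasts and DESeq2 16, 59 and 114, and for the interaction 1 and 860. Depth limits the rarer types, with 218 to 1211 microglia-like and 134 to 423 OPC-like nuclei per mouse. It also limits the neuron subtypes in some mice. A mouse gave 18 to 1505 dentate granule-like, 21 to 1027 CA1-like, 87 to 2797 cortical-like and 98 to 2956 hippocampal-like nuclei.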

Other observations

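Ephb1 in microglia-like nuclei had the smallest p of any member in a contrast outside the main 3. The 2 tau-free Cgas-/- mice held 4.90 and 4.98 CPM, from 4 and 3 UMIs, while the 5 Cgas+/+ mice held 27.2 to 32.8 CPM, from 11 to 15 UMIs each. The log2 difference was -2.66 ± 0.58 (edgeR unadjusted p = 8.36e-05, adjusted p = 0.815). The contrast sets 2 mice against 5, and the share of all genes that separated these mice was not counted. In the P301S groups the values ran from 2.45 to 35.2 CPM. Over all 27 mice Ephb1 in this type was at 11.3% of its level in excitatory neuron-like nuclei, within the range of the 7 excitatory markers there (10.3% to 30.6%), and at 2.38% of its level in oligodendrocyte-like nuclei, within the range of 8 oligodendrocyte markers (1.18% to 3.41%), and the part of released RNA in these values was not tested. Efnb3 in cortical-like nuclei had the next smallest p, with an interaction of -1.41 ± 0.38 (edgeR unadjusted p = 0.000909, adjusted p = 0.815). With 1 mouse left out it ran from -1.55 to -1.05. The 2 tau-free Cgas-/- mice held 12.3 to 17.5 CPM in few nuclei, 3.63% and 10.6% of their excitatory neuron-like nuclei. Upper layer-like nuclei were 36.8% and 2.60% of these, and the part of the layers was not tested.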
